A study of Mus musculus with 11 samples.

Results

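The S100 calcium-binding proteins were followed in EGFP+ CX3CR1+ mononuclear phagocytes taken from 3 regions of the epididymis, the duct in which sperm mature. The genes were chosen by symbol: S100a1, S100a4, S100a6, S100a8, S100a9, S100a10, S100a11 and S100a13, which are 8 of the 37583 genes in the deposited expression table. The mice carried 1 EGFP allele (CX3CR1 EGFP +/-), with EGFP driven by the CX3CR1 gene, and were 12 weeks old. All groups shared this genotype and age, and no treatment is named. The initial segments (IS) gave 4 libraries, the caput/corpus 3 and the cauda 4, each pooled from 4 epididymides by a double cell sort. EGFP marks any cell in which the CX3CR1 gene is active, so macrophages, monocytes and dendritic cells can all fall in the sort. The labels do not say which animals gave which library, so p-values measure the spread between these samples, part of which may be technical.

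S100 proteins are small EF-hand proteins that, with calcium bound, expose a hydrophobic face and dock on target proteins such as annexins, myosin and p53. Several are also released from cells and bind receptors such as TLR4 and RAGE. In myeloid cells S100A8 and S100A9 together form calprotectin, the main cytosolic protein of neutrophils and an abundant one in blood monocytes, while S100A4, S100A6, S100A10 and S100A11 serve the cytoskeleton, membranes and cell movement.

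Reads on genes ranged from 16873180 to 31737132 per library. For 8 of the 11 libraries the reads in the deposited count file matched those behind the table column named for it. The sources conflicted for cauda replicate 1, caput/corpus replicate 1 and IS replicate 2, and the values here follow the named columns. The count file of caput/corpus replicate 1 equalled the column of IS replicate 2. That of cauda replicate 1 equalled the column of caput/corpus replicate 1, and the column of cauda replicate 1 equalled no count file. In Maj3, 4 count files equalled a column, and all 4 carried the number of that column in their names. Which source is right was not tested. Cauda replicate 1 stood apart, with reads on 13434 genes where the other 10 libraries had reads on 17053 to 18837. Transcripts of 13 macrophage genes, among them Cx3cr1 and Csf1r, summed to 17600 to 24929 CPM (reads on a gene per 1000000 of the effective library size) in IS, 13016 to 21866 in caput/corpus and 11272 to 14878 in cauda, so markers of the sorted lineage were present throughout.

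Relative to IS, 5 of the 8 members rose in caput/corpus and the same 5 rose in cauda: S100a4, S100a6, S100a10, S100a11 and S100a13. The fold over IS ran from 1.77 for S100a13 to 3.65 for S100a4 in the caput/corpus, and from 1.83 to 6.73 for the same 2 genes in cauda. S100a1 was not called between any 2 regions. S100a8 and S100a9, the calprotectin pair, were at or close to 0 reads everywhere. A gene was called where the edgeR quasi-likelihood test gave a Benjamini-Hochberg adjusted p under 0.05 over all 15116 genes tested, and 6 of the 8 members had enough reads to be tested. Over all genes tested, 3.78% were called between IS and caput/corpus (2.98% higher in caput/corpus), 16.5% between IS and cauda (9.06% higher in cauda) and 0.615% between cauda and caput/corpus (0.0331% higher in cauda). All 5 had no overlap between IS and the other regions, as had 7.51% of all genes in the direction of caput/corpus and 7.95% in the direction of cauda. Both comparisons with IS use the same 4 IS libraries.

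**Figure D1:**
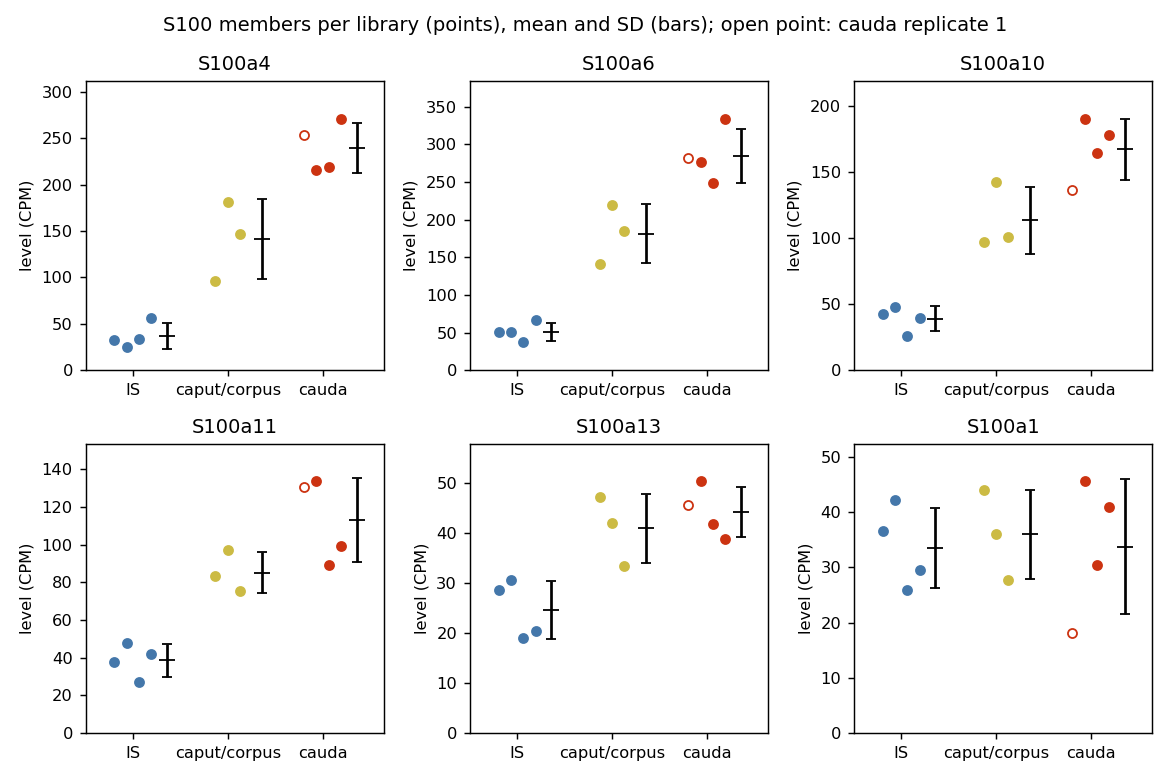
Level in CPM (vertical axes, from 0) of the 6 tested S100 members in every library, by region (horizontal axes). Points are libraries in replicate order from left to right, bars are the mean and SD, and the open point is cauda replicate 1. For S100a4, S100a6, S100a10, S100a11 and S100a13 all 4 IS points lie below every caput/corpus and cauda point. For S100a1 the regions overlap.

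S100a4 (ENSMUSG00000001020), which binds non-muscle myosin IIA and is linked to cell motility, had the largest differences of the members. Its level was 32.1, 25.4, 33.7 and 56.5 CPM in IS replicates 1 to 4, 96.1, 182 and 147 in caput/corpus replicates 1 to 3, and 254, 216, 219 and 271 in cauda replicates 1 to 4. No library of one region overlapped with another region: the highest IS library was below the lowest caput/corpus library, and the highest caput/corpus library below the lowest cauda library. The log2 fold change of IS over caput/corpus was -1.87 ± 0.22 (SE, adjusted p = 0.00314) and that of IS over cauda -2.75 ± 0.22 (adjusted p = 6.65e-05).

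S100a6 (ENSMUSG00000001025), calcyclin, is known to bind annexins and the ubiquitin ligase adaptor CacyBP. It stood at 50.4, 50.3, 37.0 and 66.4 CPM in the IS libraries, at 141, 219 and 184 in the caput/corpus, and at 281, 276, 248 and 334 in cauda. As for S100a4, the 3 regions were separated with no overlap. Levels were 3.47-fold higher in caput/corpus than in IS (log2 of IS over caput/corpus -1.80 ± 0.20, adjusted p = 0.00273) and 5.60-fold higher in cauda than in IS (log2 -2.48 ± 0.19, adjusted p = 6.64e-05).

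S100a10 (ENSMUSG00000041959) encodes p11, the member that stays in its open form without calcium and joins annexin A2 at the plasma membrane. It was at 42.7, 47.6, 26.2 and 39.6 CPM in IS libraries, 97.0, 142 and 101 in the caput/corpus, and 136, 190, 164 and 178 in cauda. IS lay apart from both other regions, whereas cauda replicate 1, at 136 CPM, fell below caput/corpus replicate 2. The rise over IS was 2.95-fold in caput/corpus (log2 -1.56 ± 0.22 for IS over caput/corpus, adjusted p = 0.00494) and 4.31-fold in cauda (log2 -2.11 ± 0.21, adjusted p = 0.000172).

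S100a11 (ENSMUSG00000027907), calgizzarin, is a partner of annexin A1 and takes part in membrane repair. IS libraries held 37.5, 47.7, 27.3 and 41.8 CPM, caput/corpus libraries 83.3, 96.9 and 75.3, and cauda libraries 131, 134, 89.1 and 99.5. In cauda the 2 libraries of the title series Maj3 (replicates 1 and 2) were above the 2 of Maj4 (replicates 3 and 4), and replicate 3 fell within the caput/corpus range. The gene was 2.32-fold higher in caput/corpus than in IS (log2 -1.21 ± 0.18 for IS over caput/corpus, adjusted p = 0.00653) and 2.93-fold higher in cauda (log2 -1.55 ± 0.17, adjusted p = 0.000301). A processed pseudogene of S100a11, listed as Gm5068, had 0 reads in all libraries, and reads that align to more than 1 place are left out of these counts, so the level of S100a11 itself is uncertain to that extent.

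S100a13 (ENSMUSG00000042312), which helps export FGF1 and interleukin-1 alpha by the non-classical route, had the smallest called differences. It stood at 28.6, 30.5, 19.0 and 20.3 CPM in IS libraries, 47.2, 42.0 and 33.4 in the caput/corpus, and 45.6, 50.2, 41.7 and 38.7 in cauda. The highest IS library, at 30.5, was just under the lowest caput/corpus library, at 33.4, and caput/corpus and cauda overlapped. The log2 fold change was -0.82 ± 0.15 for IS over caput/corpus (adjusted p = 0.0137) and -0.87 ± 0.14 for IS over cauda (adjusted p = 0.00196). The first of these calls was lost without caput/corpus replicate 1, without caput/corpus replicate 2 or without IS replicate 3, with an adjusted p of up to 0.0651, and it was also lost without the title series as covariate.

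S100a1 (ENSMUSG00000044080), known from heart and skeletal muscle as a regulator of the calcium pump SERCA2 and of ryanodine receptors, did not follow the other 5. Its level was 36.5, 42.2, 25.9 and 29.5 CPM in IS libraries, 44.0, 36.0 and 27.8 in the caput/corpus, and 18.1, 45.6, 30.3 and 40.9 in cauda. The regions overlapped, and both extremes of the 11 libraries came from cauda. The 95% interval of the log2 fold change ran from -0.82 to 0.51 for IS over caput/corpus, from -0.65 to 0.58 for IS over cauda and from -0.77 to 0.55 for cauda over caput/corpus. These intervals leave room for differences of either sign below 2-fold, so a missing call does not show equal levels. S100a1 and S100a13 lie head to head on opposite strands with annotated 5′ ends that overlap, and the counting was not stranded, so reads from the shared stretch cannot be told apart.

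The calprotectin pair was close to absent. S100a8 (ENSMUSG00000056054) had 3 and 1 reads in IS replicates 1 and 2, 7 and 3 reads in cauda replicates 2 and 4, and 0 in the other 7 libraries. Pooled, this is 0.0421 per 1000000 reads in IS (exact 95% interval 0.0115 to 0.108) and 0.0991 in cauda (0.0475 to 0.182). In caput/corpus 0 of 69108718 reads allow up to 0.0434 per 1000000. S100a9 (ENSMUSG00000056071) had 0 reads in all 11 libraries, and 0 of 264985804 reads allow up to 0.0113 per 1000000. These intervals and limits cover counting error only. Neither gene had enough reads to be tested. The neutrophil genes Ly6g, Ngp, Cxcr2, Camp and Retnlg were at 0 to 0.290 CPM in every library, and Ly6g had 0 reads in all. Elane, Mpo and Ltf reached at most 0.581, 1.79 and 2.96 CPM, each in a caput/corpus library. The sum of the 12 neutrophil genes, 343 to 702 CPM in IS libraries, 398 to 438 in caput/corpus and 108 to 246 in cauda, came mainly from Csf3r, Lcn2 and Mmp9 in IS and caput/corpus, and from Csf3r and Mmp9 in cauda, where Lcn2 was at 0.140 to 1.44 CPM. Mmp8, a neutrophil collagenase, was called higher in cauda than in IS (edgeR adjusted p = 0.0303). It was at 2.43 to 4.70 CPM in IS, 5.23 to 18.8 in caput/corpus and 8.13 to 14.7 in cauda. Mmp9 was called higher in caput/corpus than in IS. Csf3r and Lcn2 were called higher in IS than in cauda, and Lcn2 also higher in caput/corpus than in cauda.

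Levels of different members can be compared per transcript length, in RPKM. In IS the order of mean levels was S100a11 (75.9 ± 17.0 RPKM, SD, n = 4), S100a6 (71.3 ± 16.8), S100a4 (59.6 ± 21.9), S100a13 (34.6 ± 8.18), S100a1 (32.9 ± 7.15) and S100a10 (31.1 ± 7.29). The first 3 did not differ from their neighbours in this order beyond their SD, and neither did the last 3. In caput/corpus S100a6 (253 ± 55.1 RPKM, n = 3), S100a4 (229 ± 69.6) and S100a11 (168 ± 21.5) came first, then S100a10 (90.1 ± 19.9), S100a13 (57.4 ± 9.78) and S100a1 (35.3 ± 7.98). Neighbours among the first 3 differed by less than the larger of their SDs. These SDs are between libraries, and within each caput/corpus library S100a6 was above S100a4. S100a4 was below S100a11 in caput/corpus replicate 1 only, at 155 against 164 RPKM. In cauda S100a6 (398 ± 50.1 RPKM, n = 4) and S100a4 (387 ± 43.6) again lay within their SD of each other, ahead of S100a11 (223 ± 43.8), S100a10 (133 ± 18.4), S100a13 (62.0 ± 7.00) and S100a1 (33.1 ± 12.0). S100a10 was ahead of S100a13 and S100a1 in every cauda library, while in IS the order of these 3 genes was not settled. In IS replicate 4 S100a10, at 31.6 RPKM, was above S100a1 (29.0) and S100a13 (28.5), and in the other IS libraries below both. Ranked by RPKM among all genes of a library, S100a6 lay between places 429 and 917 in IS, 127 and 243 in the caput/corpus, and 77 and 117 in cauda. S100a4 lay between places 440 and 1456, 134 and 335, and 83 and 137 in the same regions.

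The summed RPKM of the 8 members was 306 ± 52.5 in IS, 833 ± 151 in caput/corpus and 1236 ± 102 in cauda, and its make-up shifted. S100a4 made up 12.5% to 25.7% of the sum in IS libraries, 22.1% to 29.8% in caput/corpus and 27.6% to 32.8% in cauda. S100a6 went from 21.5% to 26.1% in IS to 30.5% to 34.9% in cauda, with no overlap. S100a11 made up 23.1% to 28.7% in IS and 14.7% to 20.8% in cauda, S100a13 8.03% to 13.1% and 4.08% to 5.59%, and S100a1 8.16% to 12.7% and 1.42% to 3.54%. S100a10 held a similar share in all regions, 8.88% to 11.6% in IS, 10.0% to 11.3% in caput/corpus and 8.68% to 12.0% in cauda. Shares of a sum depend on each other, and these are given without a test.

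**Figure D2:**
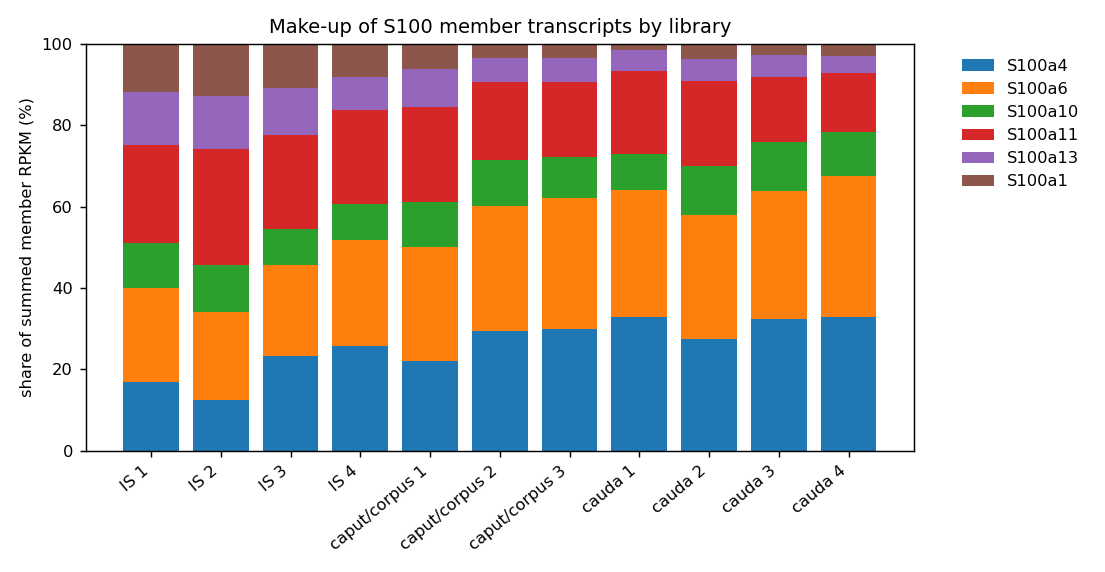
Share of the summed RPKM of the 8 members (vertical axis, percent) held by each of the 6 tested members in each library (horizontal axis). S100a1 and S100a13 together fill a wider band in the 4 IS libraries than in the 4 cauda libraries, where S100a1 is at most 3.54%. S100a8 and S100a9 are too small to be seen.

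Between cauda and caput/corpus 0 of the 6 tested members were called by edgeR, beside 93 of all 15116 genes tested, and 3 members had an unadjusted p under 0.05. S100a4 was 1.85-fold higher in cauda on average (log2 of cauda over caput/corpus 0.88 ± 0.23, adjusted p = 0.144), with a 95% interval of the log2 fold change of 0.38 to 1.39. The values for S100a6 were 0.69 ± 0.20 (adjusted p = 0.204, interval 0.24 to 1.14) and for S100a10 0.55 ± 0.22 (adjusted p = 0.352, interval 0.06 to 1.03). S100a11, at 0.34 ± 0.18, and S100a13, at 0.05 ± 0.15, had intervals that span 0. S100a4 and S100a6 had every cauda library above every caput/corpus library, as had 3.04% of all genes tested. DESeq2 on the same reads called both (adjusted p = 0.00954 and 0.0411), while limma voom on the same reads and limma on log2(RPKM + 1) called 0 members.

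**Figure D3:**
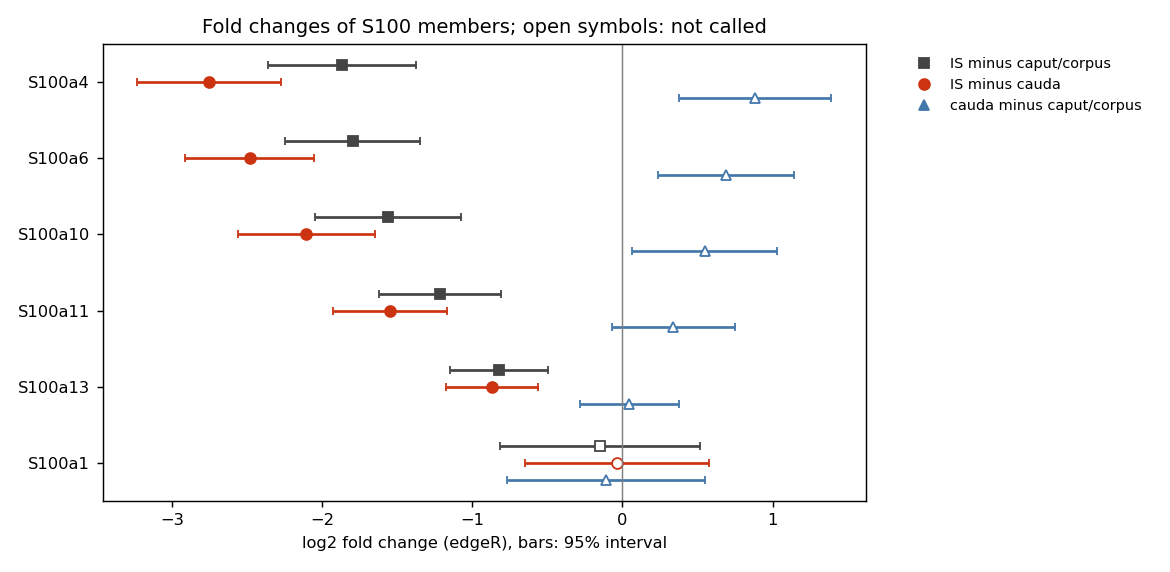
Log2 fold change (horizontal axis, edgeR, first region minus second) of the 6 tested members (vertical axis) in the 3 comparisons, with 95% intervals as bars. Filled symbols are called and open symbols are not. The 5 members from S100a4 to S100a13 lie below 0 in both comparisons with IS, from -2.75 to -0.82, and S100a1 lies near 0 in all 3.

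The calls against IS were also examined in the libraries whose 2 sources match. In these 8 libraries the same 5 members were called in both comparisons, with log2 fold changes for IS over caput/corpus of -1.92 for S100a4, -1.96 for S100a6, -1.84 for S100a10, -1.38 for S100a11 and -0.91 for S100a13. For IS over cauda they were -2.54, -2.47, -2.30, -1.58 and -0.96 in the same order. With the counts as filed, which place other reads under the 3 libraries in conflict, none of the 5 passed (S100a4 -0.84 and -1.83, adjusted p = 0.725 and 0.128), and edgeR then called 0 and 4 genes in all. All 5 kept their direction there, and for IS over cauda all had an unadjusted p under 0.05.

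Both title series hold all 3 regions, and the 5 members had the same direction in each. In Maj3 the log2 fold change of IS over cauda was -2.98 for S100a4, -2.42 for S100a6, -1.81 for S100a10, -1.58 for S100a11 and -0.65 for S100a13. In Maj4 it was -2.44, -2.49, -2.37, -1.44 and -1.03. Of these, S100a4 and S100a6 were called in Maj3 alone and all 5 in Maj4 alone. For IS over caput/corpus the Maj3 values ran from -1.77 for S100a4 to -0.70 for S100a13, and the Maj4 values from -1.97 for S100a6 to -0.95 for S100a13. Maj3 holds 1 caput/corpus library, and in that comparison edgeR called 0 genes in Maj3 alone (404 at an unadjusted p under 0.05), while Maj4 alone called 4 of the 5, without S100a13 (adjusted p = 0.0598).

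All 8 members lie on chromosome 3. In the RefSeq annotation (GRCm38.p6) S100a1, S100a13, S100a14, S100a16, S100a3, S100a2, S100a4, S100a5, S100a6, S100a7a, S100a8 and S100a9 follow one another with no other protein-coding gene between them. S100a7l2 comes next, with 1 other protein-coding gene between it and S100a9. S100a11 and S100a10 are neighbours in a second group on the same chromosome, with 54 protein-coding genes between S100a7l2 and S100a11. The 5 called members thus come from both groups. S100a5, which lies between S100a4 and S100a6, had 21 reads in all libraries together, S100a3 32 and S100a7a 12, while S100a14 and S100a16, which follow S100a13, had 334 and 2384.

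RefSeq promoter windows were found for 7 of the 8 members. Those of S100a4 and S100a6, the neighbours with the largest differences, and of S100a11, from the second group, are shown because these genes were called in the same direction. Each runs from 250 to 16 bases before the annotated start, 5′ to 3′ on the plus strand of GRCm38.p6, at chr3:90603520-90603754, chr3:90612644-90612878 and chr3:93520246-93520480. Capitals mark matches to 6 motifs searched on both strands.
S100a4: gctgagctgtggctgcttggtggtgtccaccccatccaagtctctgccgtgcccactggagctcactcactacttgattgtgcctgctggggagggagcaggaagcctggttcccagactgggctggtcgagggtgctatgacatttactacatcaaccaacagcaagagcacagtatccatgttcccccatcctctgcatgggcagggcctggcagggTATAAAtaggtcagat
S100a6: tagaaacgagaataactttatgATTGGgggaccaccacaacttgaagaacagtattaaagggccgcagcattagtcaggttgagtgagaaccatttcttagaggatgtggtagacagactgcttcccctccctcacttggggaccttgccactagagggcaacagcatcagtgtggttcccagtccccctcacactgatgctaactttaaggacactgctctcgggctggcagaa
S100a11: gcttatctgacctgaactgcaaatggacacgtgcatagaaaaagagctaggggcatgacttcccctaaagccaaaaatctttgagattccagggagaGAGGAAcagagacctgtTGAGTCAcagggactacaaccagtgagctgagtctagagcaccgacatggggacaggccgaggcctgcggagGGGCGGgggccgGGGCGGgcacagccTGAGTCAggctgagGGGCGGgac
The motifs were the TATA box TATAAA, which 11.9% of all 32851 promoter windows of this length hold, the CCAAT box CCAAT (32.6%), the GC box GGGCGG (30.6%), the AP-1 motif TGANTCA (6.48%), the C/EBP motif TTGCNNAA (9.17%) and the ETS core GAGGAA (21.8%). The S100a4 window held 1 TATAAA, 31 to 26 bases before the start. The S100a6 window held 1 CCAAT, on the other strand. The S100a11 window held 3 GGGCGG, 2 TGANTCA and 1 GAGGAA, none of which overlap, and no TATAAA. The 3 windows shared none of the 6 motifs. The windows of S100a1 and S100a13 held none of them. That of S100a8 held 1 TATAAA, 30 to 25 bases before the start, and 2 GAGGAA, and that of S100a9 held 1 GGGCGG and 1 TTGCNNAA. A match describes the letters only, and binding was not measured.

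Of 8 further mouse S100 genes, 2 were tested, and both were higher in IS than in cauda. Neither was called between IS and caput/corpus (edgeR adjusted p = 0.967 for S100a16 and 0.948 for S100a14), where the libraries overlapped. S100a16 was at 10.4, 34.2, 9.34 and 7.15 CPM in IS libraries, 12.4, 7.99 and 11.6 in the caput/corpus, and 0, 2.23, 1.62 and 0.481 in cauda. S100a14 was at 0.887, 8.07, 0.702 and 0.215 CPM in IS libraries, 0.804, 0.626 and 1.98 in the caput/corpus, and had 2 reads in all of cauda. All IS libraries were above all cauda libraries for both genes, as for 10.6% of all genes tested, and IS replicate 2 was far above the other IS libraries. S100a16 was higher in IS than in cauda (log2 3.68 ± 1.01, adjusted p = 0.0329), and the call was kept in 2 of the 11 fits that leave out 1 library, with an adjusted p of 0.00224 to 0.0958. For S100a14 (adjusted p = 0.0427) the ratio of pooled reads, 256 in IS against 2 in cauda, was 130 per effective library size (exact 95% interval 35.6 to 1079.9, counting error only). Of the IS reads 213 came from IS replicate 2, and without that library the ratio was 30.1 (7.84 to 256). The call was kept in 2 of the 11 such fits and lost with the replicate block (adjusted p = 0.0666) and in the 8 libraries with matching sources (adjusted p = 0.133). The summed level of 12 epididymal epithelium genes was 1096 to 2713 CPM in IS libraries, 282 to 511 in caput/corpus and 3.37 to 6.06 in cauda, and was highest in IS replicate 2, and its part in the levels of S100a14 and S100a16 was not tested. S100a3, S100a5, S100a7a, S100b, S100g and S100z had 2 to 32 reads each in all libraries together.

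Of 21 genes for binding partners, targets and receptors of S100 proteins, 19 were tested. Against caput/corpus, IS was lower for 5 and higher for 1, and against cauda it was lower for 6 and higher for 4. Over all genes tested, 0.794% were called higher in IS than in caput/corpus and 7.4% higher in IS than in cauda. The median log2 fold change over these 19 was -0.11 for IS over caput/corpus and 0.04 for IS over cauda, against 0.02 and 0.05 over all genes tested. For the 6 tested members the medians were -1.39 and -1.83.

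The annexins and their scaffold made up most of the partners that were higher outside IS. Anxa2, the partner of S100A10, was at 141, 233, 93.4 and 152 CPM in IS libraries, 405, 401 and 329 in the caput/corpus, and 824, 742, 462 and 582 in cauda, with no overlap between regions. Over all genes tested, this held for 7.51% with caput/corpus above IS, 7.95% with cauda above IS and 3.04% with cauda above caput/corpus. The log2 fold change of Anxa2 was -1.41 ± 0.22 for IS over caput/corpus (adjusted p = 0.00711) and -2.08 ± 0.21 for IS over cauda (adjusted p = 0.000189). The log2 ratio of S100a10 to Anxa2 CPM within a library averaged -1.95 ± 0.24 (SD) in IS, -1.76 ± 0.28 in caput/corpus and -1.94 ± 0.48 in cauda. The average ratios were thus similar while both levels differed. Between cauda libraries the log2 ratio ran from -2.60 to -1.49, and a difference between regions was not tested. Ahnak, the giant scaffold that binds the complex of annexin A2 and S100A10, averaged 113 CPM in IS libraries, 312 in caput/corpus and 619 in cauda (log2 -1.32 ± 0.24, adjusted p = 0.0140, and -2.47 ± 0.23, adjusted p = 0.000132). The first of these was lost without caput/corpus replicate 2 or 3 (adjusted p of up to 0.0609). Anxa1, the partner of S100A11, averaged 87.9, 185 and 326 CPM and was called in both comparisons with IS (log2 -1.28 ± 0.21 and -1.91 ± 0.19, adjusted p = 0.00873 and 0.000196). Anxa6, which binds S100A1 and S100A6, averaged 136, 251 and 371 CPM and was called in both as well (log2 -0.99 ± 0.12 and -1.46 ± 0.11). Anxa11, a partner of S100A6, was called for cauda over IS only at the margin (adjusted p = 0.0461) and kept that call in 1 of 11 fits that leave out a library.

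Fgf1 and Il1a, the cargoes of S100A13 on the list, were higher in IS than in cauda and were not called between IS and caput/corpus (edgeR adjusted p = 0.997 and 0.410). Fgf1 was at 3.48, 6.78, 2.32 and 3.79 CPM in IS and at 3.99, 2.60 and 5.57 in caput/corpus, while all of cauda held 3 reads. The ratio of pooled reads per effective library size was 138 for IS over cauda (exact 95% interval 47.0 to 673) and 132 for caput/corpus over cauda (44.7 to 643), with edgeR adjusted p of 0.000948 and 0.0107. Fgf1 was the only gene of the 21 called between cauda and caput/corpus, a call lost without caput/corpus replicate 1 (adjusted p = 0.0619). Every caput/corpus library was above every cauda library for Fgf1, as for 6.52% of all genes tested (0.582% were called in that direction). Il1a was at 143, 177, 132 and 87.6 CPM in IS libraries, 161, 29.9 and 43.3 in the caput/corpus, and 22.5, 58.2, 35.9 and 38.1 in cauda. It was higher in IS than in cauda (log2 1.74 ± 0.40, adjusted p = 0.0153), a call lost without IS replicate 3 (adjusted p = 0.0561). In caput/corpus replicate 1, a library with conflicting sources, Il1a stood far above the other 2 libraries. In Maj4 alone and in the libraries with matching sources Il1a was called higher in IS than in caput/corpus.

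**Figure D4:**
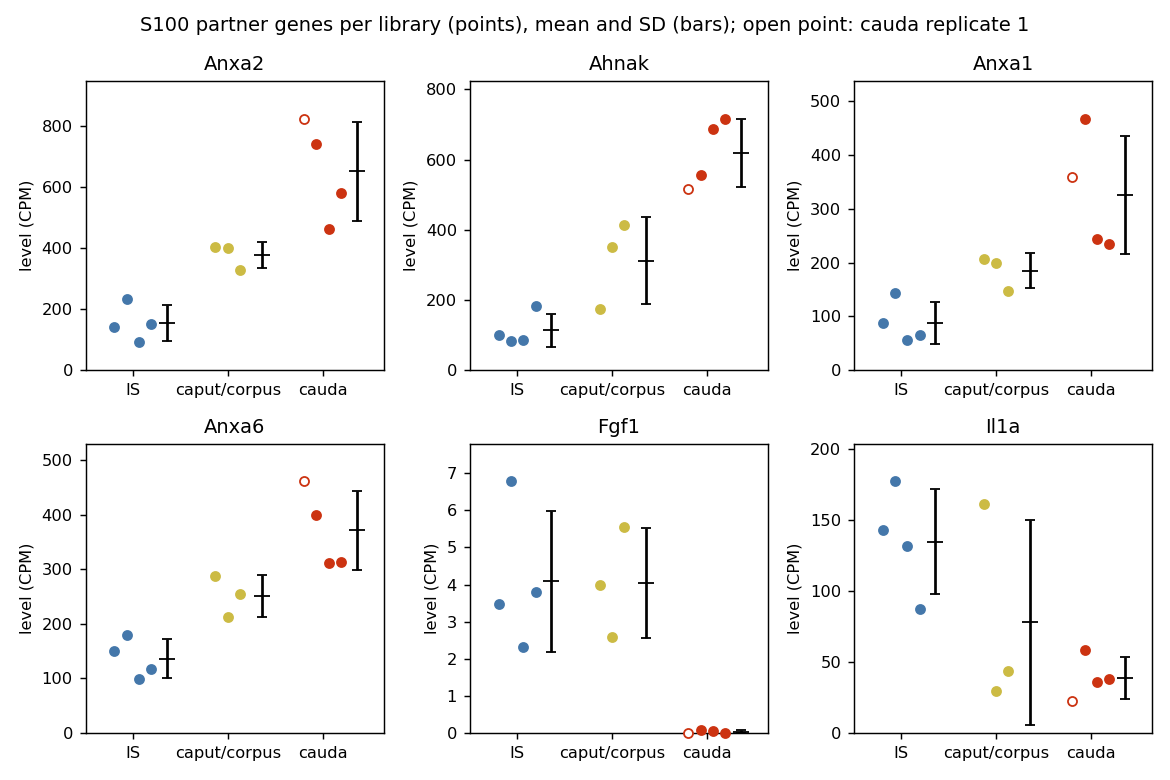
Level in CPM (vertical axes, from 0) of 6 S100 partner genes in every library by region (horizontal axes), with mean and SD as bars and cauda replicate 1 as an open point. Anxa2, Anxa1 and Anxa6 are lowest in IS and highest in cauda without overlap between IS and the other regions, and Fgf1 is at most 0.0685 CPM in cauda.

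Targets tied to S100A1 gave a mixed picture. Ryr1, the ryanodine receptor of skeletal muscle, averaged 9.51 CPM in IS libraries, 43.0 in caput/corpus and 101 in cauda (log2 -2.26 ± 0.22 and -3.39 ± 0.21, adjusted p = 0.00151 and 1.52e-05). Atp2a2, which encodes SERCA2, was not called (147, 126 and 143 CPM). Myh9, the heavy chain of the myosin that S100A4 binds, was not called either, at 313 ± 212, 314 ± 236 and 333 ± 224 CPM, and its libraries split by title series: in Maj3 it was at 118 to 152 CPM and in Maj4 at 243 to 578. Cacybp, the partner of S100A6, was at 72.1, 76.4 and 75.5 CPM. Trp53, which encodes p53, a target of S100A4, was slightly higher in IS than in cauda (105 against 76.6 CPM, adjusted p = 0.0270), a call kept in 7 of 11 fits that leave out a library.

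Among receptors for released S100 proteins, Cd33, a sialic acid-binding receptor that takes S100A9 as ligand, was higher in IS, at 387, 339, 422 and 374 CPM, than in caput/corpus, at 203, 142 and 164, and cauda, at 176, 184, 247 and 175. The IS libraries did not overlap with the others, as for 6.82% of all genes tested against caput/corpus and 10.6% against cauda. The log2 fold change of Cd33 was 1.16 ± 0.17 for IS over caput/corpus and 0.96 ± 0.15 for IS over cauda (edgeR adjusted p = 0.00550 and 0.00198). Tlr4 averaged 157, 114 and 76.1 CPM and was not called (adjusted p = 0.742 and 0.119 against IS). Cauda replicate 1 was its lowest library, at 13.7 CPM, and without that library Tlr4 was called higher in IS in both comparisons (log2 0.48 and 0.72, adjusted p = 0.0474 and 0.00342). Ager, which encodes RAGE, was at 1.91, 1.36 and 1.82 CPM, and Bsg and Cd36 were not called.

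The summed levels of 3 marker lists of other cell types were, like the 5 called members, lower in IS. Fewer cells of a type and less RNA per cell cannot be told apart in these bulk libraries. The sum of 14 monocyte genes, among them Ccr2 and Plac8, was 896 to 1938 CPM in IS libraries, 3470 to 4672 in caput/corpus and 4803 to 5706 in cauda. Of these genes 7 of 14 were called higher in caput/corpus than in IS and 11 of 14 higher in cauda. Over all genes tested, 2.98% and 9.06% were called in these directions. The monocyte sum came mainly from Ccr2, Nr4a1 and F13a1. Vcan, Treml4 and Ace were called in neither comparison, and Treml4 was at 17.6 to 35.2 CPM in IS and 12.2 to 27.2 in cauda. Monocyte-derived cells are known for high S100a4 and S100a6, but these bulk libraries do not show which cells held the transcripts. The 10 conventional dendritic cell genes summed to 434 to 745, 1683 to 2147 and 1598 to 3050 CPM, with 6 and 7 called higher outside IS. This sum came mainly from Cd209a and Clec10a, and Clec9a, Itgae and Ccr7 were called in neither comparison. The 8 mast cell genes summed to 42.4 to 122, 772 to 1119 and 1122 to 4226 CPM, with 7 and 8 called. Mast cells are not among the cells that a sort on EGFP under the CX3CR1 gene is meant to take. Of the 13 macrophage genes, 2 were called higher in IS than in caput/corpus and 8 higher in IS than in cauda, against 0 and 1 (Ptprc) called lower in IS. Over all genes tested, 0.794% and 7.4% were called higher in IS. None of the monocyte, dendritic cell and mast cell lists has a gene at 0 reads in all libraries. The part of these cell types in the levels of the 5 members was not tested.

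**Figure D5:**
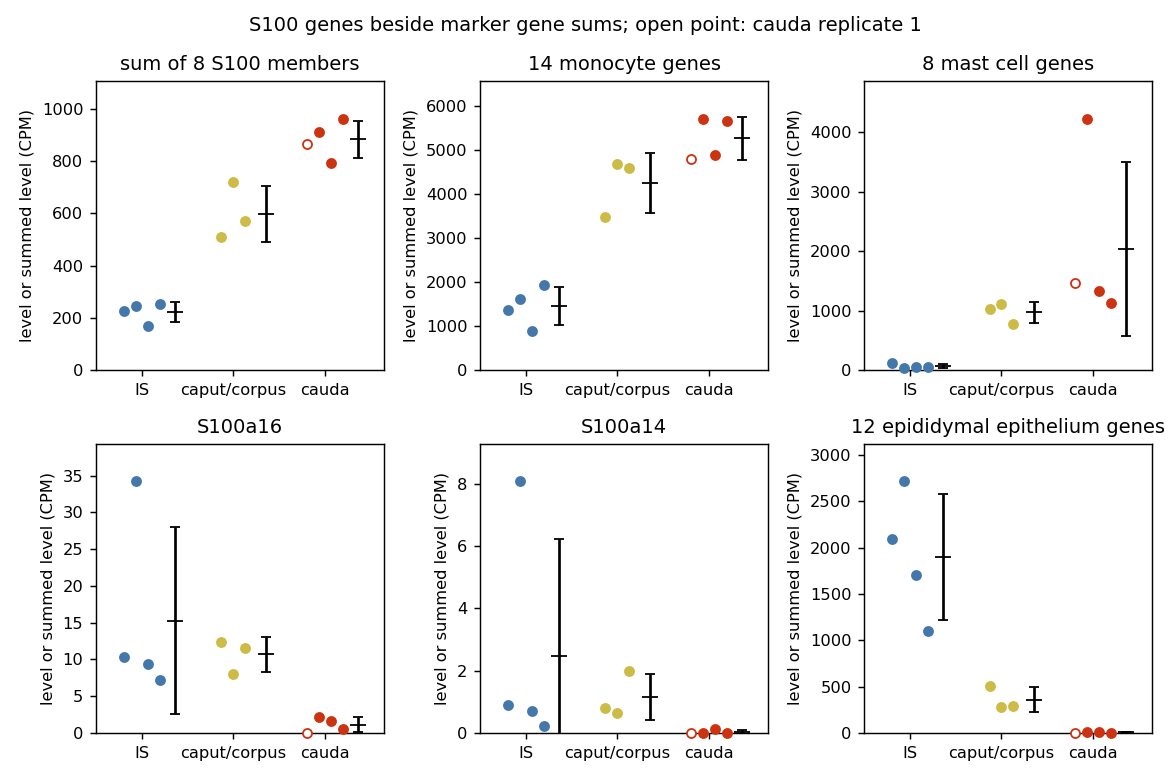
Summed level in CPM (vertical axes, from 0) of the 8 S100 members, of 14 monocyte and 8 mast cell genes, levels of S100a16 and S100a14, and the summed level of 12 epididymal epithelium genes, in every library by region (horizontal axes), with mean and SD as bars and cauda replicate 1 open. The member sum, the monocyte sum and the mast cell sum are lowest in the 4 IS libraries. S100a16, S100a14 and the epithelium sum are highest in IS replicate 2. The SD bar of S100a14 in IS stops at the axis.

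Across the 11 libraries, log2 CPM of S100a4 and S100a6 had a Pearson r of 0.984, and of S100a10 with S100a6 and S100a11 0.978 and 0.963. S100a13 had an r of 0.752 with S100a4 and 0.923 with S100a11, and S100a1 had an r of -0.12 to 0.242 with the other 5, and of 0.184 to 0.675 without cauda replicate 1. The points fall into 3 regions and 2 title series that they share, so these are descriptions of the same regional difference. The genes whose pattern was most like that of S100a4 were Ccl9, a monocyte-attracting chemokine (r = 0.991), Gda, guanine deaminase (0.985), and Stk38, a kinase (0.985). For S100a6 they were Vim, the intermediate filament vimentin (0.992), Add3, an adducin of the cortical cytoskeleton (0.991), and Ccl9 (0.990). For S100a10 they were Myadm (0.981), Crip1 (0.981) and Glipr2 (0.980). For S100a11 they were Hopx (0.995), Pqlc3 (0.990) and Bri3bp (0.990), and for S100a13 Slc1a5, a glutamine transporter (0.981), Fh1, fumarate hydratase (0.978), and Gm8399 (0.975). Gm8399 had few reads, with means of 0.186 CPM in IS, 0.577 in caput/corpus and 0.612 in cauda. The genes most like S100a1 were Sar1a (0.978), Clptm1 (0.960) and Sdhaf2 (0.956), which fell to 0.954, 0.926 and 0.909 without cauda replicate 1.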

How the data were processed

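The members and the gene lists were chosen with earlier results of these data known. The deposited count files hold whole read counts per gene, and the submitters' processing notes name STAR, HTSeq, edgeR and build mm9. The authors also deposited RPKM values for 11 libraries. Multiplied by gene length these were whole multiples of a single step (tolerance 0.001) for all genes, and the reads so recovered were analysed. TMM scaling of these reads gave the authors' own RPKM scale. Reads were counted without strand, per the names of the deposited files, and in the 10 count files that equal an analysed column 12.5% to 28.5% of reads were not uniquely aligned and left out.

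All 11 libraries were fitted together with edgeR 4.0.16 in R 4.3.3 (quasi-likelihood test, TMM, filterByExpr by region, covariate title series Maj3 or Maj4, Benjamini-Hochberg over 15116 genes, threshold 0.05). SEs were derived from the F statistic. DESeq2 1.42.0 and limma 3.58.1 were alternatives, 25 in all. Genes named were the 8 members, 8 other S100 genes, partners called in a comparison or needed beside a member, and the 3 genes with the highest Pearson r per member (log2 CPM, prior count 2). The fit was tested on simulated counts. Same-numbered libraries had deviations from their region means correlated at 0.118 to 0.394 in the pairs with IS and at -0.014 to 0.281 between caput/corpus and cauda, and differently numbered ones of a series at 0.0165 to 0.180. These ranges overlap, so neither the data nor the labels settle whether same-numbered libraries are pairs. The main edgeR fit used no pairing, and the replicate block was run as an alternative.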

Additional observations from a re-analysis of the deposited data

Results flagged for a closer look

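In IS, replicate 2 stood far from the other 3 libraries for S100a14, at 8.07 CPM, and for S100a16, at 34.2 CPM. Of 15 sets of 4 libraries screened, chance alone sets apart about 1 in 20. The 12 epididymal epithelium genes were also highest in that library, at 2713 CPM, and their part in this was not tested.

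The count file deposited under IS replicate 2 equals no column of the RPKM table and was not used in the comparisons. It held S100a4 at 84.2 CPM, S100a6 at 125, S100a10 at 80.8, S100a11 at 85.3, S100a13 at 34.9 and S100a1 at 30.7. The first 5 values lie above every IS library used. S100a4, S100a6 and S100a10 lie below every caput/corpus and cauda library, and S100a11 and S100a13 within the caput/corpus range.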

How the results depend on the processing

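No result for a named gene that was called in the main edgeR fit changed direction under any of the 25 alternatives (24 for S100a14 between IS and cauda, which was not tested with the 2 regions alone). Il1a between IS and caput/corpus was not called in the main fit but was called in 2 alternatives. Its log2 fold change over the alternatives ran from -0.04 to 1.69. Against IS, S100a4, S100a6, S100a10 and S100a11 were called in 23 of 25 alternatives for caput/corpus (not in Maj3 alone or with the counts as filed) and S100a13 in 18, and for cauda S100a4 and S100a6 in 24 and the other 3 in 23. The replicate block, which takes same-numbered libraries as pairs, changed no call of a member, and 398, 2362 and 41 genes were then called between IS and caput/corpus, IS and cauda, and cauda and caput/corpus, against 571, 2488 and 93. Leaving out 1 library gave 234 to 1353, 1641 to 3124 and 29 to 205 genes, the highest counts without cauda replicate 1. Between IS and caput/corpus the count was 1268 with DESeq2, 934 with log2(RPKM + 1), 914 with the 2 regions alone, 954 with matching sources, 233 without covariate, 0 in Maj3 alone and 0 as filed (edgeR, 404 and 1166 at an unadjusted p under 0.05). Between IS and cauda it was 1481 without covariate, 30 in Maj3 alone, 1144 in Maj4 alone and 4 as filed. Between cauda and caput/corpus it was 632 with DESeq2, 171 with limma voom, 143 and 188 with log2(RPKM + 1) and log2(RPKM + 0.1), 184 without a filter, 8 with the 2 regions alone, 5 in Maj3 alone, 28 in Maj4 alone, 52 with matching sources and 0 as filed (992 at an unadjusted p under 0.05). The cause of these differences was not tested. With DESeq2, 36.8% of the calls between IS and caput/corpus were higher in IS, against 21.0%, and 18.7% of those between cauda and caput/corpus higher in cauda, against 5.38%. Depth limits S100a8, S100a9 and S100a14 in cauda.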
